A study of Mus musculus with 10 samples.

Results

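Translation factors and cytosolic aminoacyl-tRNA synthetases form the core machinery that turns messenger RNA into protein, and their transcripts were followed here in mouse dendritic cells, antigen-presenting cells of the immune system. The genes were chosen by name alone: every gene whose mouse symbol begins with Eif1 to Eif6 (initiation factors, without the Eif2ak kinases), with Eef1 or Eef2 (elongation factors), or has the form of a cytosolic synthetase (a letter for the amino acid followed by ars, and Eprs). This gave 82 of the 41813 genes in the tables. The rule matched 93 mouse symbols in all, and the other 11, of which 10 were pseudogenes and 1 was Eef1akmt4, were not analysed here. RNA was sequenced from 3 activated and 3 non-activated libraries, part of a series of 10 samples whose other 4 were chromatin (ATAC-seq) samples, not analysed here. All libraries came from bone marrow-derived cells recorded as CD11c+ with high MHC class II. By the series' design text, all cells had been given lipopolysaccharide (LPS, a bacterial ligand of the receptor TLR4), either with or without the ovalbumin peptide OVA323-339. A coculture of 24 h followed with CD4+ T cells from OT-II mice, whose receptor recognises that peptide. The text does not tie the words activated and non-activated to the cells with and without peptide. The sample labels differ from it: they record LPS stimulation for the activated cells and none for the non-activated cells, so the groups are called here as the sample titles call them. No strain, age or allele of the dendritic cells is given in the labels, and no source says whether replicates were separate animals or cultures. The p-values therefore measure only the spread between these samples.

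Translation begins when eIF2 brings the initiator tRNA to the small ribosomal subunit, where eIF1, eIF1A, eIF3 and eIF5 scan the messenger for a start codon that the cap-binding complex eIF4F has made accessible. Elongation factor eEF1A then delivers each charged tRNA to the ribosome and eEF2 moves the ribosome along by a codon, while the synthetases charge each tRNA with its amino acid. Dendritic cells are known to regulate protein synthesis as they mature, in large part through phosphorylation of eIF2 and signalling by mTORC1, which RNA levels do not report.

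Summed expected counts (fractional read counts per gene) ran from 21338012 to 27404937 per library. Dendritic cell markers were detected 12 of 12, with summed levels of 17770 to 21490 CPM (counts scaled to library size with TMM factors) in activated and 16800 to 20100 CPM in non-activated libraries. The replicate 1 libraries of both groups stood apart in 2 T cell receptor transcripts. Trac was at 7420 CPM in activated replicate 1 and 7444 CPM in non-activated replicate 1, and between 2.73 and 27.8 CPM in the other 4 libraries. Trbc2 was at 107 CPM in activated replicate 1 and 106 CPM in non-activated replicate 1, and between 0.504 and 1.88 CPM elsewhere. Without these transcripts, the other markers of a list of 15 T cell genes summed to 400 to 466 CPM in activated libraries and 524 to 570 CPM in non-activated ones, and of the T cell-defining genes Cd3e stayed at or under 1.90 CPM and Cd4 at or under 1.49 CPM, each highest in activated replicate 1. Most of that sum was Il7r, at 363 to 427 CPM in activated libraries and 469 to 532 CPM in non-activated ones. Of the 8 T cell genes tested, Lck and Cd247 were higher and Il7r was lower. Lck was at 5.17, 4.02 and 3.92 CPM in activated libraries, against 0.685, 1.22 and 1.10 CPM in non-activated ones, and Cd247 was at 5.20, 2.99 and 3.14 CPM in the activated, against 2.44, 1.47 and 1.05 CPM in the non-activated libraries. Of 6 markers of activated T helper cells 3 were tested, of which Il2 was higher and Icos lower. Il2 was at 8.62, 0.491 and 0.531 CPM in activated libraries, against 0, 0 and 0.0811 CPM in non-activated ones. These 6 summed to 6.87 to 23.2 CPM in activated libraries and 13.4 to 18.5 CPM in non-activated ones. The part of these T cell transcripts in the results was not tested. Both groups hold 1 library with high Trac. Without both of them, 9 of the translation genes rose and 13 fell, against 15 and 12 with all libraries. The log2 fold changes were then 1.28 for Eif4g3, 0.72 for Eif1a and -0.99 for Eef1a1, all of which still passed. Lck, Cd247 and Il2 were higher in activated libraries in replicates 2 and 3 too, so leaving out replicate 1 does not remove that difference. Markers of cycling cells summed to 193 to 233 CPM in activated libraries and 182 to 202 CPM in non-activated ones, with 3 of 8 higher and 1 lower. In bulk RNA, fewer cells of a type and less RNA per cell cannot be told apart.

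Of the 82 genes, 80 passed the filter on low counts and were tested with edgeR's quasi-likelihood test across 13946 genes, with Benjamini-Hochberg adjustment and a threshold of 0.05. In activated cells 15 rose, 12 fell and 53 did not pass. That is 33.8% of those tested, against 27.6% of all genes tested in either direction, 15.9% higher and 11.7% lower, so the share is near that of the transcriptome. The changes were mostly small. Eif4g3 was the single gene that passed and differed at least 2-fold, 1.25% of the 80 against 8.94% of all genes, and the median size of the log2 fold change was 0.23 against 0.28 for all genes. The median log2 fold change was 0.02, against 0.01 for all genes. The values of the groups did not overlap for 42 of the 80 (52.5%), against 44.7% of all genes, and these 42 held all 27 that passed. The 2 genes that were not tested were Eif4e1b, an oocyte form of the cap-binding protein with no read in any library, and Eif2c5, which RefSeq annotates as a long non-coding RNA. Eif2c5 had 14, 6 and 12 expected counts in activated and 0, 0 and 2 in non-activated libraries. Without the filter it passed, with an adjusted p of 0.0162 by edgeR's quasi-likelihood test and 0.0201 by limma on TPM (a level per transcript length).

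**Figure D1:**
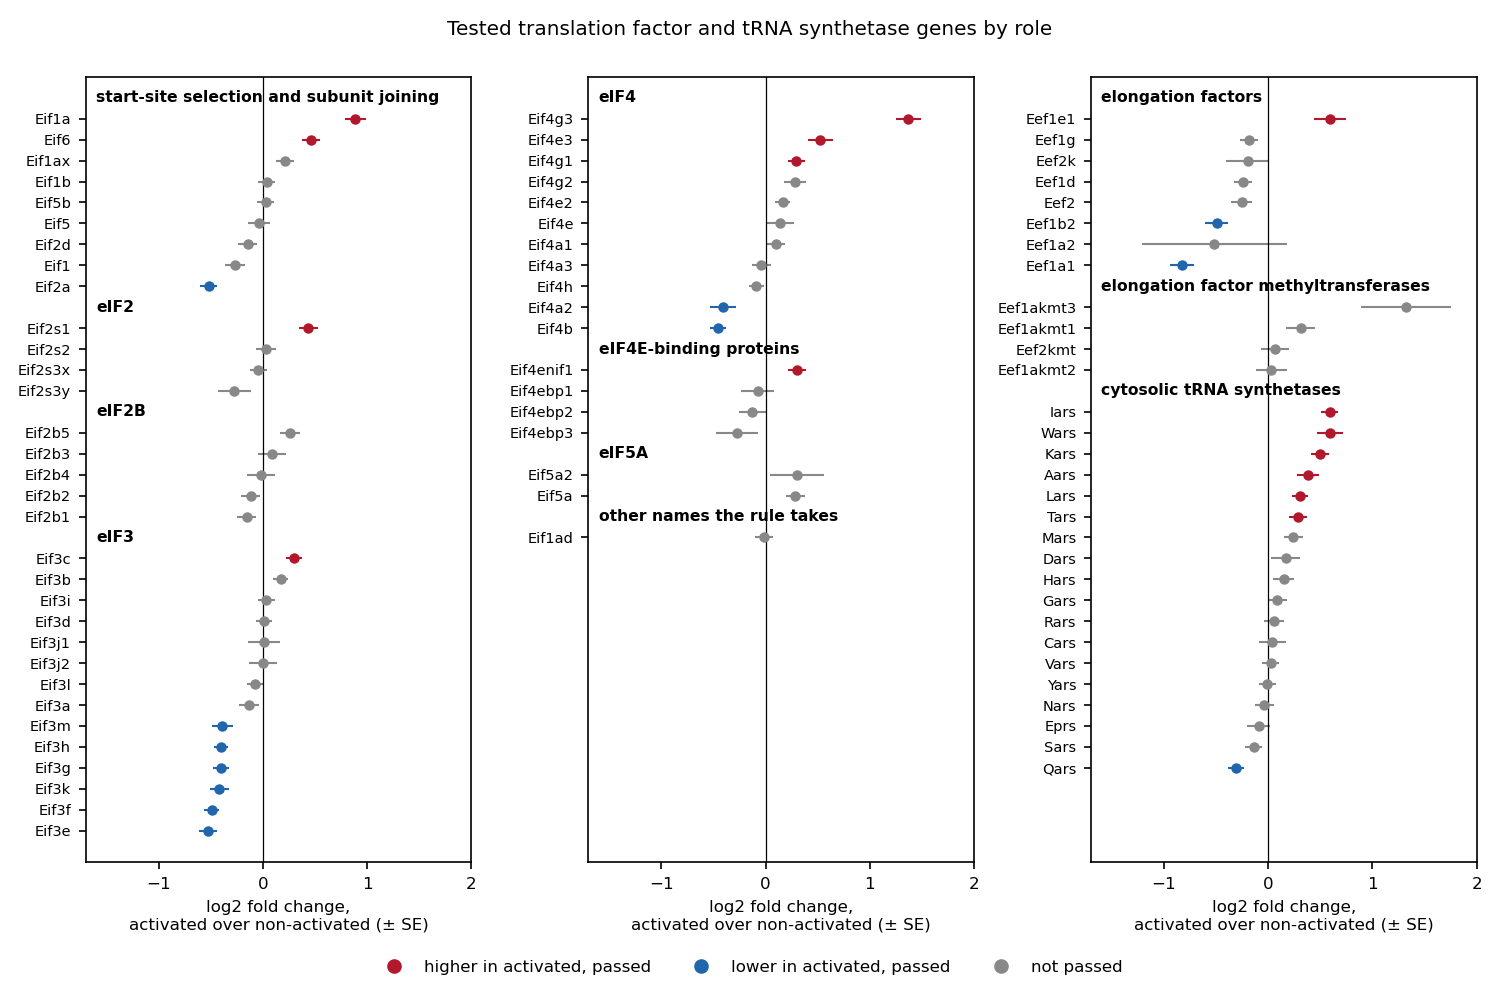
Log2 fold change (activated over non-activated) on the horizontal axis for the 80 tested genes, grouped by role, with bars of 1 SE; colours give higher, lower and not passed by edgeR's quasi-likelihood test. Eif4g3 lies farthest right at 1.37 and Eef1a1 farthest left at -0.83, and 6 of the 14 eIF3 subunits lie below 0 and passed.

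The plot by role shows that the changes did not run one way through the machinery. Among the 50 tested initiation factor genes 8 rose and 9 fell. Among 12 genes named for elongation factors 1 rose and 2 fell. Of the 18 cytosolic synthetases 6 rose and 1 fell. Of all genes tested, 15.9% were higher and 11.7% lower. The share that passed was 34.0% for initiation factors, 25.0% for elongation factor names and 38.9% for synthetases, against 27.6% of all genes.

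Eif4g3 encodes a form of eIF4G, the scaffold on which the cap-binding protein eIF4E, the helicase eIF4A and eIF3 meet. Eif4g3 (chr4:137991779-138207086, RefSeq GRCm38.p6) stood at 282, 304 and 226 CPM in activated replicates 1 to 3, against 98.6, 114 and 102 CPM in non-activated replicates 1 to 3. Every activated library lay far above the highest non-activated one, and the groups did not overlap. The rise was 2.58-fold (log2 fold change 1.37 ± 0.12 SE), with an adjusted p of 0.00013 by edgeR's quasi-likelihood test. It passed under each of the 17 alternatives tried, with adjusted p from 1.23e-23 to 0.00415.

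The related scaffold Eif4g1 rose less, from a higher level. Eif4g1 was at 416, 409 and 398 CPM in activated libraries, against 327, 351 and 318 CPM in non-activated ones. The groups did not overlap (log2 fold change 0.30 ± 0.08 SE, adjusted p 0.0251 by edgeR's quasi-likelihood test). Per length, Eif4g1 averaged 144 ± 3.67 TPM in activated libraries and 120 ± 5.33 TPM in non-activated ones, and Eif4g3 averaged 77.1 ± 11.2 TPM in activated libraries and 30.6 ± 2.67 TPM in non-activated ones (SD, n = 3 each). Of their summed TPM, Eif4g1 made up 65.1%, 61.9% and 68.8% in activated and 80.7%, 79.4% and 79.0% in non-activated libraries. Eif4g1 was therefore the more abundant of the pair in every library, by a smaller margin in each activated one. Eif4g2, a relative that lacks the eIF4E-binding region, averaged 606 ± 58.5 TPM in activated libraries and 520 ± 14.2 TPM in non-activated ones, and its difference did not pass (log2 fold change 0.28 ± 0.11 SE, adjusted p 0.0837 by edgeR's quasi-likelihood test). It passed with the replicate number as a block (adjusted p 0.0227) and with DESeq2 (0.0362), within a range of 0.0227 to 0.27 over the alternatives.

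**Figure D2:**
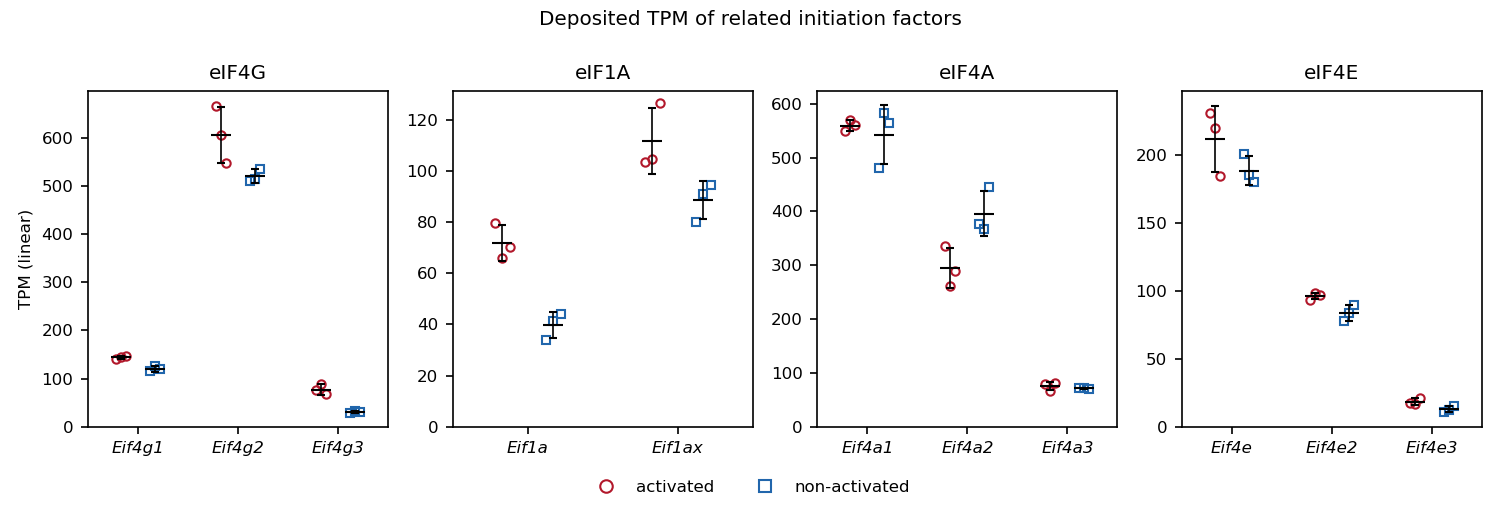
Deposited TPM (vertical axis, linear) of related initiation factors; circles are the 3 activated and squares the 3 non-activated libraries, with the mean and SD. Eif4g3 and Eif1a separate the groups without overlap, while Eif4a1 and Eif4e do not.

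The other eIF4 genes moved in both directions. Eif4b, a partner that stimulates the helicase, fell to 204, 202 and 210 CPM in activated libraries, against 270, 295 and 281 CPM in non-activated ones. Its groups did not overlap (log2 fold change -0.46 ± 0.07 SE, adjusted p 0.00261 by edgeR's quasi-likelihood test). Eif4a2, per length the less abundant of the helicases Eif4a1 and Eif4a2, fell to 384, 287 and 303 CPM in activated libraries, against 438, 399 and 454 CPM in non-activated ones. Activated replicate 1 came close to the lowest non-activated library without reaching it (log2 fold change -0.41 ± 0.12 SE, adjusted p 0.0394 by edgeR's quasi-likelihood test). Eif4a1 averaged 551 ± 17.01 CPM in activated libraries and 513 ± 29.7 CPM in non-activated ones, overlapped between groups and did not pass (log2 fold change 0.10 ± 0.09 SE). Eif4a1 made up 62.1%, 68.6% and 66.0% of the summed TPM of the helicase pair in activated and 56.0%, 61.4% and 55.9% in non-activated libraries. Eif4a3, the form found in the exon junction complex, did not pass (log2 fold change -0.04 ± 0.09 SE). Eif4a1 and Eif4a2 share long stretches of sequence, as do Eif1a and Eif1ax and Eif3j1 and Eif3j2, and how the authors' counting divided shared reads between such pairs is uncertain.

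At the cap, Eif4e, which encodes the main cap-binding protein, was at 142, 133 and 100.5 CPM in activated libraries and 123, 113 and 104 CPM in non-activated ones. These values overlapped and did not pass (log2 fold change 0.14 ± 0.13 SE). Eif4e3, a minor relative, rose to 28.2, 26.9 and 32.6 CPM in activated libraries, against 18.0, 20.0 and 22.9 CPM in non-activated ones, without overlap (log2 fold change 0.53 ± 0.12 SE, adjusted p 0.0123 by edgeR's quasi-likelihood test). The genes of the inhibitory 4E-binding proteins did not pass: Eif4ebp1 averaged 59.4 ± 6.68 CPM in activated libraries and 62.6 ± 14.7 CPM in non-activated ones, and Eif4ebp2 averaged 90.1 ± 11.8 CPM in activated libraries and 98.4 ± 13.3 CPM in non-activated ones. Eif4enif1, which encodes the 4E-transporter that carries eIF4E into the nucleus and to P-bodies, rose by a log2 fold change of 0.30 ± 0.09 SE (adjusted p 0.0368 by edgeR's quasi-likelihood test).

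Single libraries decided several of these eIF4 calls. Eif4g1 was lost without any 1 library other than non-activated replicate 2 (adjusted p 0.053 to 0.0974), Eif4a2 without any 1 other than activated replicate 1 (0.0604 to 0.125), and Eif4enif1 without any 1 other than activated replicate 3 (0.0651 to 0.122). Over all alternatives by edgeR, limma and DESeq2, adjusted p ran from 0.00408 to 0.164 for Eif4g1, from 0.00403 to 0.283 for Eif4a2, from 0.0225 to 0.222 for Eif4enif1 and from 0.00174 to 0.125 for Eif4e3, which was lost on TPM and without both replicate 2 libraries.

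The genes of start-site selection included Eif1a, next to Eif4g3 in the size of its rise. It encodes a form of eIF1A, which helps the small subunit scan and settle on the start codon. Eif1a (chr18:46597704-46610225) stood at 109.5, 91.8 and 89.5 CPM in activated libraries, against 48.9, 53.6 and 54.9 CPM in non-activated ones. The lowest activated library lay well above the highest non-activated one. The rise was 1.85-fold (log2 fold change 0.89 ± 0.10 SE, adjusted p 0.000437 by edgeR's quasi-likelihood test) and passed under each of the 17 alternatives. Its X-linked partner Eif1ax, the more abundant of the pair per length in every library, was at 77.5, 72.4 and 76.6 CPM in activated libraries and 62.7, 71.3 and 61.3 CPM in non-activated ones. The groups did not overlap, but the difference did not pass (log2 fold change 0.22 ± 0.08 SE, adjusted p 0.0947 by edgeR's quasi-likelihood test). Eif1a made up 43.5%, 38.7% and 35.7% of their summed TPM in activated and 29.8%, 31.1% and 31.8% in non-activated libraries.

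Eif6, whose product keeps the large ribosomal subunit from joining too early, rose to 154, 167 and 164 CPM in activated libraries, against 119, 127 and 107 CPM in non-activated ones. The groups did not overlap (log2 fold change 0.46 ± 0.09 SE, adjusted p 0.00494 by edgeR's quasi-likelihood test). Eif2a, which encodes an alternative carrier of initiator tRNA distinct from the eIF2 complex, fell to 34.7, 33.1 and 31.1 CPM in activated libraries, against 45.2, 49.4 and 47.2 CPM in non-activated ones. All 3 activated values were below all non-activated ones (log2 fold change -0.52 ± 0.08 SE, adjusted p 0.00224 by edgeR's quasi-likelihood test). Eif1, per length the most abundant initiation factor transcript, averaged 1353 ± 88.1 TPM in activated libraries and 1622 ± 158 TPM in non-activated ones and did not pass (adjusted p 0.0788 by edgeR's quasi-likelihood test), although it did with the replicate block (0.0275) and with DESeq2 (0.0184), in a range of 0.0184 to 0.341. Eif5, the GTPase activator of eIF2, averaged 404 ± 45.3 CPM in activated libraries and 414 ± 25.9 CPM in non-activated ones, with a log2 fold change of -0.04 ± 0.11 SE.

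Of the eIF2 complex itself, the subunit gene Eif2s1 rose and the others did not pass. Eif2s1 encodes eIF2 alpha, the subunit that stress kinases phosphorylate to hold back initiation. It was at 87.5, 77.9 and 72.2 CPM in activated libraries, against 58.2, 57.1 and 60.2 CPM in non-activated ones. No value of either group reached the other group (log2 fold change 0.44 ± 0.09 SE, adjusted p 0.00738 by edgeR's quasi-likelihood test). Eif2s2 had a log2 fold change of 0.03 ± 0.09 SE. The gamma subunit has an X-linked and a Y-linked gene, and Eif2s3x averaged 50.2 ± 2.68 TPM in activated libraries and 52.1 ± 5.30 TPM in non-activated ones, close to Eif2s3y at 44.1 ± 9.40 TPM in activated libraries and 59.3 ± 14.6 TPM in non-activated ones. Eif2s3y did not pass (log2 fold change -0.28 ± 0.16 SE) except with the replicate block, where it was lower with an adjusted p of 0.0141 by edgeR's quasi-likelihood test. Of the 5 genes of eIF2B, the exchange factor that reloads eIF2 with GTP, 0 passed by edgeR's quasi-likelihood test, by DESeq2 or by limma on TPM, and 1 had an unadjusted p under 0.05. That was Eif2b5, the catalytic subunit, at 51.9, 46.8 and 47.0 CPM in activated libraries and 44.0, 41.7 and 35.9 CPM in non-activated ones (adjusted p 0.0809 by edgeR's quasi-likelihood test, 0.0225 with the replicate block, 0.0225 to 0.276 over the alternatives). Calls for Eif6, Eif2a and Eif2s1 were lost in the limma test of unfiltered TPM (adjusted p 0.0656, 0.0564 and 0.0761), Eif6 without both replicate 3 libraries (0.0739) and Eif2s1 without both replicate 2 libraries (0.0697).

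The scaffold eIF3, which holds the small subunit open for initiation, showed a fall of 6 of its 14 tested genes and a rise of 1, against 11.7% of all genes lower and 15.9% higher. The 6 were Eif3e, Eif3f, Eif3g, Eif3h, Eif3k and Eif3m, and their log2 fold changes lay between -0.53 and -0.39. Eif3e, the lowest of them, fell to 76.4, 71.6 and 62.7 CPM in activated libraries, against 99.7, 104 and 99.7 CPM in non-activated ones. Eif3f fell to 138, 132 and 140 CPM in activated libraries, against 181, 194 and 203 CPM in non-activated ones. Both separated the groups with a clear gap, with adjusted p of 0.00339 and 0.00211 by edgeR's quasi-likelihood test, and both passed under each of the 17 alternatives. Eif3h was at 129, 126 and 130 CPM in activated libraries, against 164, 177 and 168 CPM in non-activated ones (adjusted p 0.00359 by edgeR's quasi-likelihood test). The values within each group lay close together and far from the other group.

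Of the subunits that fell, Eif3e, Eif3f, Eif3h, Eif3k and Eif3m belong with Eif3a, Eif3c and Eif3l to the octamer at the centre of the mammalian complex, while Eif3g sits with Eif3b and Eif3i in a separate module. The octamer genes did not all move one way. Eif3c rose to 314, 309 and 279 CPM in activated libraries, against 251, 244 and 240 CPM in non-activated ones. The groups were apart (log2 fold change 0.30 ± 0.08 SE, adjusted p 0.0237 by edgeR's quasi-likelihood test). Eif3a was at 368, 344 and 305 CPM in activated libraries and 362, 390 and 358 CPM in non-activated ones, which overlapped (log2 fold change -0.13 ± 0.09 SE). Eif3b had a log2 fold change of 0.17 ± 0.07 SE and did not pass. Eif3d, Eif3i and Eif3j1 had log2 fold changes within 0.04 of 0, and Eif3l was at -0.08 ± 0.08 SE. This division by position in the complex was made after the values were seen, and no difference between the parts was tested.

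Summed over eIF3, transcripts came to 1270, 1277 and 1273 TPM in activated libraries, against 1367, 1513 and 1503 TPM in non-activated ones, so each activated library was lower than each non-activated one. The count of 6 was 5 to 6 when any 1 library was left out, 3 without both replicate 2 libraries and 2 without both replicate 3 libraries. Eif3m was lost without any 1 library other than activated replicate 1 (adjusted p 0.057 to 0.0658) and Eif3c without any 1 other than activated replicate 3 (0.0619 to 0.0822). Over all alternatives the adjusted p ran from 0.0022 to 0.158 for Eif3m, from 0.00865 to 0.154 for Eif3c, from 9.54e-06 to 0.0581 for Eif3h, from 0.000203 to 0.0698 for Eif3g and from 0.000696 to 0.0884 for Eif3k. The last 3 were lost only with a pair of libraries left out or, for Eif3k, also in the limma test of unfiltered TPM (0.0805).

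**Figure D3:**
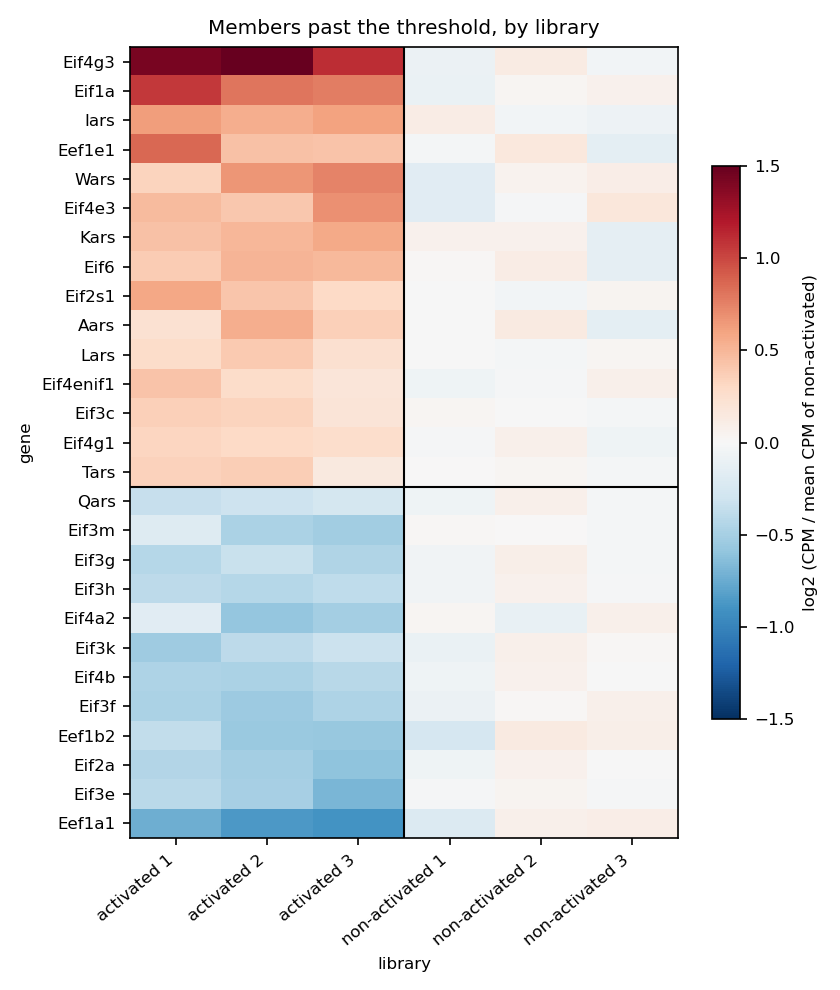
Log2 of each library's CPM over the mean CPM of the non-activated libraries, for the 15 genes that rose (above the line) and the 12 that fell; columns are the 3 activated and then the 3 non-activated libraries. Every activated tile has the colour of its gene's direction, and the shade is deepest for Eif4g3, Eif1a and Eef1a1.

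The elongation factors carried the largest fall. Eef1a1 encodes eEF1A, which delivers charged tRNAs to the ribosome and is among the most abundant proteins of a cell. Eef1a1 (chr9:78478453-78481724) fell to 1439, 1319 and 1283 CPM in activated libraries, against 2082, 2530 and 2573 CPM in non-activated ones. Non-activated replicate 1 was the lowest of its group and still above every activated library. The level was 0.563-fold that of non-activated cells (log2 fold change -0.83 ± 0.12 SE, adjusted p 0.00133 by edgeR's quasi-likelihood test), and it passed under each of the 17 alternatives, with adjusted p up to 0.0472. Per length it was the most abundant of the 82 genes over all libraries, with 1280 ± 35.5 TPM in activated libraries and 2250 ± 345 TPM in non-activated ones (SD, n = 3 each). Eef1a2, the form of nerve and muscle, stayed under 1 TPM in every library.

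Eef1b2 encodes a subunit of eEF1B, which reloads eEF1A with GTP. It fell to 119, 104 and 103 CPM in activated libraries, against 129, 168 and 163 CPM in non-activated ones. Replicate 1 of each group came closest to the other group, without overlap (log2 fold change -0.50 ± 0.12 SE, adjusted p 0.0139 by edgeR's quasi-likelihood test). The call was lost without non-activated replicate 2 (adjusted p 0.0566) or 3 (0.0596), and the range over the alternatives was 0.000636 to 0.162. The other eEF1B subunit genes, Eef1d and Eef1g, had log2 fold changes of -0.24 ± 0.08 SE and -0.18 ± 0.09 SE and did not pass. Eef1d passed under 6 of the 17 alternatives, in a range of 0.0271 to 0.32. By edgeR's quasi-likelihood test it passed with the replicate block (adjusted p 0.039) and with upper-quartile factors (0.0333). It also passed there without activated replicate 1 (0.0271) or both replicate 1 libraries (0.0339). Limma on log2(TPM + 1) and log2(TPM + 0.1) called it too (0.0429 and 0.0438). Eef2, the translocase gene, was at 1234, 1355 and 1342 CPM in activated libraries and 1459, 1694 and 1535 CPM in non-activated ones. The groups did not overlap, but the difference did not pass by edgeR's quasi-likelihood test (log2 fold change -0.25 ± 0.10 SE, adjusted p 0.102). It passed with the replicate block (0.0349) and with DESeq2 (0.0171), in a range of 0.0171 to 0.387, so that the block raised the count of elongation factor genes that fell to 4, against 2 without it.

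Eef1e1 moved the other way. It encodes AIMP3, a scaffold protein of the multi-synthetase complex that resembles eEF1 subunits, and was at 17.6, 13.2 and 13.1 CPM in activated libraries, against 9.48, 10.8 and 8.80 CPM in non-activated ones. Activated replicate 1 was the highest library, and the groups did not overlap (log2 fold change 0.59 ± 0.16 SE, adjusted p 0.0236 by edgeR's quasi-likelihood test). The call was lost when activated replicate 1 (0.0586), non-activated replicate 1 (0.0672) or non-activated replicate 3 (0.0882) was left out, with a range of 0.00976 to 0.115. Eef2k, the kinase that inactivates eEF2, averaged 4.50 ± 0.53 CPM in activated libraries and 5.16 ± 0.92 CPM in non-activated ones and did not pass. Of 4 methyltransferases of elongation factors 0 passed by edgeR's quasi-likelihood test, by DESeq2 or by limma on TPM, and 1 had an unadjusted p under 0.05. That gene, Eef1akmt3, was at 0.929, 0.687 and 0.817 CPM in activated libraries and 0.228, 0.252 and 0.487 CPM in non-activated ones, the largest fold among the tested genes that did not pass (2.51-fold, adjusted p 0.0521 by edgeR's quasi-likelihood test). It passed without non-activated replicate 3 (0.0395, range 0.0395 to 0.265).

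Added together, the 8 elongation factor genes came to 2543, 2560 and 2684 TPM in activated libraries, against 3293, 4089 and 4237 TPM in non-activated ones. Non-activated replicate 1 lay between the activated libraries and the other non-activated ones. All 82 genes together made 10354 ± 97.7 TPM in activated libraries and 11802 ± 932 TPM in non-activated ones (SD, n = 3 each), and Eef1a1 alone accounted for most of that difference. A sum of TPM is a share of the sequenced RNA and says nothing of the amount per cell.

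**Figure D4:**
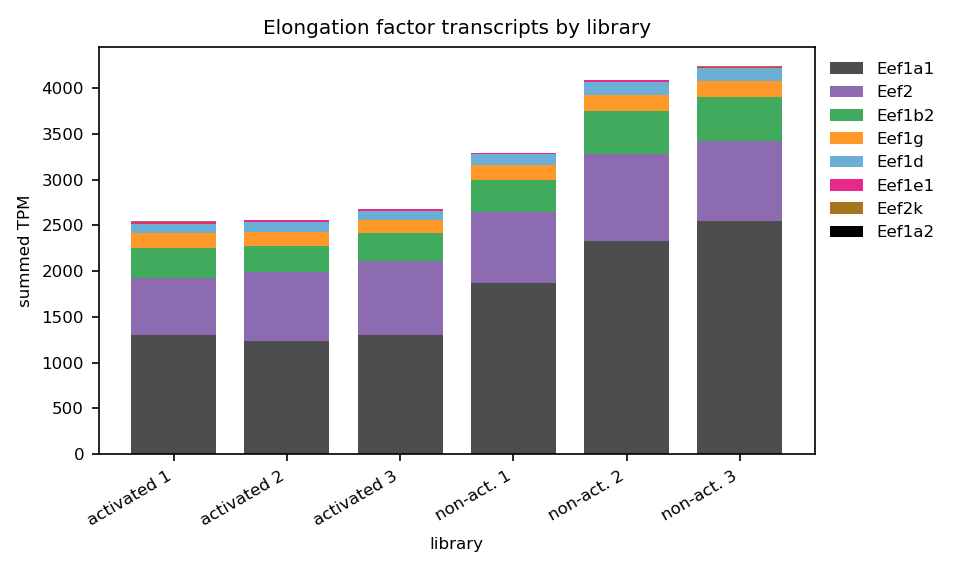
Summed deposited TPM (vertical axis) of the 8 elongation factor genes in each library, activated on the left and non-activated on the right, stacked by gene. The activated bars end between 2543 and 2684 TPM and the non-activated ones between 3293 and 4237 TPM, with Eef1a1 the largest block in each.

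Eif5a encodes eIF5A, a factor with the modified residue hypusine that eases the ribosome through stalling sequences. It was at 364, 400.2 and 340 CPM in activated libraries, against 299, 325 and 281 CPM in non-activated ones. The groups did not overlap, and the difference fell just short by edgeR's quasi-likelihood test (log2 fold change 0.29 ± 0.10 SE, adjusted p 0.0557), while it passed with the replicate block (0.0111) and with DESeq2 (0.0313), in a range of 0.0111 to 0.18. Eif5a2 was among the 3 tested genes with the lowest levels, at 2.70 ± 0.73 TPM in activated libraries and 2.21 ± 0.58 TPM in non-activated ones, along with Eef1a2 and Eef1akmt3.

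Among the 18 cytosolic synthetases, the genes for the isoleucine, tryptophan, lysine, alanine, leucine and threonine enzymes (Iars, Wars, Kars, Aars, Lars and Tars) rose, the glutamine enzyme gene Qars fell, and 11 did not pass. Of all genes tested, 15.9% were higher and 11.7% lower. The median log2 fold change of the 18 was 0.12, against 0.01 for all genes. Of the 18, 13 were above 0, against 7068 of 13946 among all genes. Iars was at 47.8, 45.2 and 47.3 CPM in activated libraries, against 33.5, 30.2 and 29.4 CPM in non-activated ones. The activated values lay within 3 CPM of each other and far above the non-activated ones (log2 fold change 0.59 ± 0.08 SE, adjusted p 0.00132 by edgeR's quasi-likelihood test). Kars was at 82.3, 85.8 and 90.4 CPM in activated libraries, against 63.5, 63.9 and 55.5 CPM in non-activated ones. It too separated the groups (log2 fold change 0.50 ± 0.09 SE, adjusted p 0.0034 by edgeR's quasi-likelihood test), and Iars and Kars passed under each of the 17 alternatives.

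Wars encodes tryptophanyl-tRNA synthetase, known in human cells as one of the genes that interferon gamma induces. It was at 63.9, 80.5 and 85.2 CPM in activated libraries, against 45.3, 52.7 and 54.6 CPM in non-activated ones. Replicate 1 was the lowest library of each group, and the groups did not overlap (log2 fold change 0.59 ± 0.12 SE, adjusted p 0.00862 by edgeR's quasi-likelihood test). Leaving out both replicate 1 libraries gave a log2 fold change of 0.61, which passed, while the call was lost without both replicate 2 (0.0707) or both replicate 3 libraries (0.0736), in a range of 0.000281 to 0.082.

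Aars was at 175, 217 and 190 CPM in activated libraries, against 148, 164 and 134 CPM in non-activated ones. The lowest activated value stood a little above the highest non-activated one (log2 fold change 0.38 ± 0.11 SE, adjusted p 0.03 by edgeR's quasi-likelihood test). On TPM its spread was wider, 80.0 ± 21.7 TPM in activated libraries and 58.8 ± 9.38 TPM in non-activated ones, and limma did not call it (adjusted p 0.223). Lars and Tars rose by log2 fold changes of 0.30 ± 0.08 SE and 0.29 ± 0.09 SE, with adjusted p of 0.0184 and 0.0412 by edgeR's quasi-likelihood test. Qars fell to 80.8, 82.9 and 85.4 CPM in activated libraries, against 98.5, 109 and 101 CPM in non-activated ones, without overlap (log2 fold change -0.31 ± 0.08 SE, adjusted p 0.0175 by edgeR's quasi-likelihood test).

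Several synthetase calls hung on single libraries. Aars was lost on leaving out activated replicate 2 (adjusted p 0.0882) or 3 (0.0667), and likewise non-activated replicate 1 (0.0792) or 3 (0.112). Lars was lost without any 1 non-activated library and without activated replicate 2 (0.052 to 0.0825), Tars without any 1 library other than activated replicate 3 (0.0941 to 0.141), and Qars without non-activated replicate 2 (0.074). The count of 6 that rose was 3 with activated replicate 2, non-activated replicate 1 or non-activated replicate 3 removed. Over all alternatives by edgeR, limma and DESeq2, adjusted p ran from 0.00495 to 0.378 for Aars, from 0.0117 to 0.176 for Lars, from 0.0173 to 0.2 for Tars and from 0.00284 to 0.161 for Qars.

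**Figure D5:**
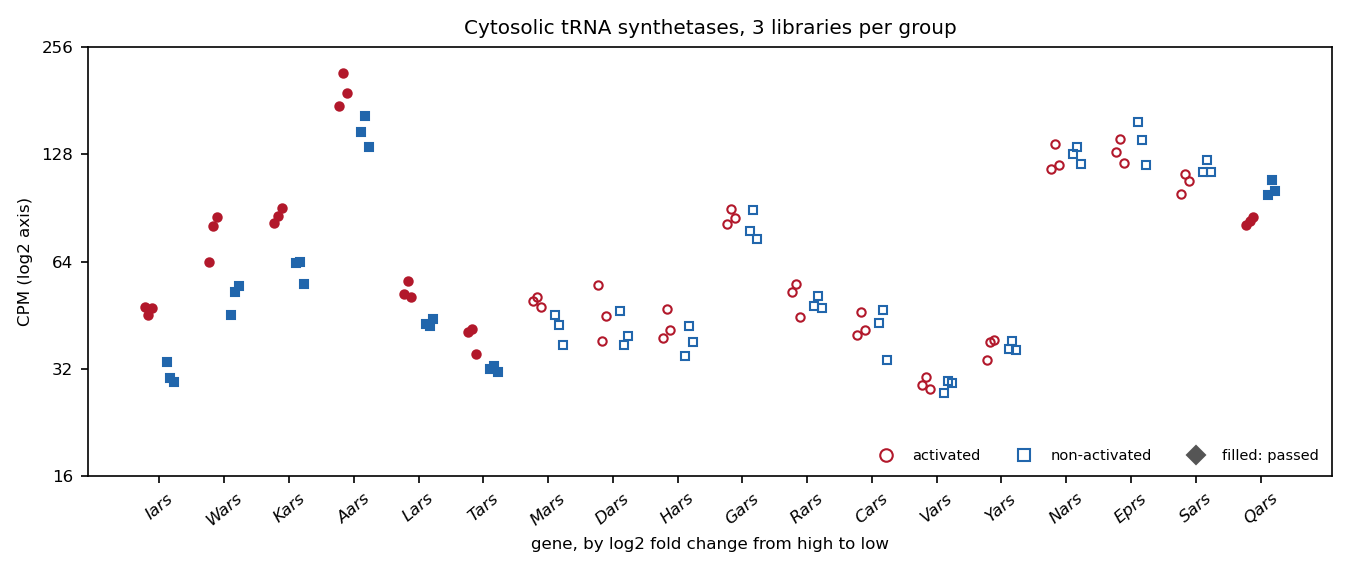
CPM (vertical axis, log2 scale) of the 18 cytosolic synthetase genes, ordered by log2 fold change; circles are the 3 activated and squares the 3 non-activated libraries, filled where the gene passed. The groups are apart for Iars, Wars, Kars, Aars, Lars and Tars with activated higher, and for Qars with activated lower. Mars (activated higher) and Sars (activated lower) do not overlap either, but did not pass.

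The remaining synthetases stayed close to their non-activated levels, as the plot by library shows. Gars, for glycine, averaged 85.3 ± 4.03 CPM in activated libraries and 80.3 ± 7.88 CPM in non-activated ones. Eprs, a fused enzyme for glutamate and proline, averaged 131 ± 10.3 CPM in activated libraries and 139 ± 19.1 CPM in non-activated ones. Both overlapped between groups. Mars, for methionine, averaged 49.4 ± 1.65 CPM in activated libraries and 41.7 ± 4.01 CPM in non-activated ones without overlap, and passed with the replicate block alone (adjusted p 0.0291, range 0.0291 to 0.285, against 0.08 by edgeR's quasi-likelihood test without it). Summed over the 18 genes, transcripts came to 865 ± 63.6 TPM in activated libraries and 835 ± 37.2 TPM in non-activated ones (SD, n = 3 each), a difference within the spread.

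Many synthetase genes are known targets of ATF4, the transcription factor of the amino acid and integrated stress responses, through a composite CCAAT-enhancer-binding protein and ATF element. RefSeq promoter windows of GRCm38.p6, from 250 bases before to 50 after a start, were at hand for 57 of the 80 tested genes and 10 of the 18 synthetases. A match to TGATGNAAN on either strand was present for 5 of those 10 synthetases (Aars, Gars, Iars, Tars and Yars) and for 2 of the other 47 genes (Eef2k and Eif2s3x), against 4.50% of 27025 genes and 3.95% of 32851 windows. A site of each of these synthetases is printed below 5′ to 3′ on the gene's strand, with the match in capitals; in all but Yars it lies on the other strand and appears as its reverse complement. The sites are shown as a description of the matches, by which these genes were picked. Those of Eef2k and Eif2s3x are not printed.
Aars, chr8:111033840-111033868, + strand: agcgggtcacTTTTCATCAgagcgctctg
Iars, chr13:49682126-49682154, + strand: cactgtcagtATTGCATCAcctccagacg
Tars, chr15:11399656-11399684, - strand: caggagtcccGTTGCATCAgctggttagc
Gars, chr6:55037960-55037988, + strand: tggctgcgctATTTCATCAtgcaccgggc
Yars, chr4:129189896-129189924, + strand: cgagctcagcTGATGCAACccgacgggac

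These printed matches lie between 31 bases before and 17 bases after the start. Aars has a further match that is not printed, at positions -113 to -105 from the start. Of the 5 genes, Aars, Iars and Tars rose, whereas Gars and Yars did not pass (log2 fold changes 0.09 ± 0.09 SE and -0.01 ± 0.08 SE). Kars rose with no such letters in its window. Counted over all tested genes with a window, 3 of 10 that rose and 0 of 10 that fell had a match. Other short motifs were CACGTG (an E-box) in 15 of the 57 genes against 8.09% of all genes, GGAAGT or its reverse complement (an ETS core) in 26 against 26.5%, TTCNNNGAA (the GAS element of STAT factors) in 7 against 9.55%, and the ISRE core of interferon response genes in 4 against 3.99%. Among the 10 that rose and the 10 that fell, the E-box was in 4 and 2 genes and the GAS element in 4 and 1. The ETS core was in 3 and 5 of them, and the ISRE core in 1 and 1. Each motif was searched on both strands, matches may overlap, and a match is a description and not a bound site.

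The wider pathway was followed in gene lists given with their counts. Of ATF4 and 13 of its known targets other than synthetases, 7 of 14 rose and 1 fell, against 15.9% and 11.7% of all genes, with a median log2 fold change of 0.67. Mthfd2, a mitochondrial folate enzyme, rose to 119, 112 and 139 CPM in activated libraries, against 71.4, 72.4 and 78.7 CPM in non-activated ones. Shmt2, its neighbour in serine and folate metabolism, rose to 25.7, 20.3 and 18.7 CPM in activated libraries, against 12.4, 11.2 and 10.9 CPM in non-activated ones. These did not overlap, with adjusted p of 0.00102 and 0.00207 by edgeR's quasi-likelihood test. Slc7a5, a transporter of large amino acids, averaged 31.96 ± 7.88 CPM in activated libraries and 16.1 ± 2.55 CPM in non-activated ones, and Psat1, of serine synthesis, averaged 12.3 ± 1.76 CPM in activated libraries and 6.92 ± 0.91 CPM in non-activated ones, both past the threshold except in the limma test of unfiltered TPM (adjusted p 0.06 and 0.0799). Phgdh, the first enzyme of serine synthesis, was at 5.43, 1.86 and 2.86 CPM in activated libraries, against 1.37, 0.462 and 0.243 CPM in non-activated ones. At these low levels the groups did not overlap (log2 fold change 2.28 ± 0.62 SE, 4.84-fold, adjusted p 0.0264 by edgeR's quasi-likelihood test). The Phgdh call was lost with activated replicate 1 or 3, or with non-activated replicate 2 or 3, removed (0.0549 to 0.0889, range over all alternatives 0.000772 to 0.14). Atf4 itself was the gene that fell, to 311, 278 and 252 CPM in activated libraries, against 356, 374 and 344 CPM in non-activated ones (log2 fold change -0.35 ± 0.10 SE, adjusted p 0.0268 by edgeR's quasi-likelihood test). The 7 that rose became 4 without non-activated replicate 2 or 3, and the Atf4 call was lost without any 1 library other than activated replicate 1 (0.0581 to 0.0917, range over all alternatives 0.00361 to 0.174). The 7 that rose were 2 with limma on unfiltered TPM. Ddit3, the stress-induced factor CHOP, did not pass (log2 fold change -0.37 ± 0.14 SE, adjusted p 0.0845 by edgeR's quasi-likelihood test). It passed as lower with the replicate block (0.0318), with DESeq2 (0.0396) and with no filter on low counts (0.0256), in a range of 0.0256 to 0.317 over all alternatives, which made the number that fell 2.

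Among the regulators of mTORC1 and eIF4E was Pdcd4, whose product binds the helicase eIF4A and blocks its part in initiation. Pdcd4 rose to 61.0, 65.7 and 63.2 CPM in activated libraries, against 19.7, 18.2 and 22.9 CPM in non-activated ones. Each activated library was far above the highest non-activated one. The rise was 3.13-fold (log2 fold change 1.64 ± 0.10 SE, adjusted p 2.36e-05 by edgeR's quasi-likelihood test), and it passed under each of the 17 alternatives. Of the 11 regulators in that list, Larp1, a binding protein of ribosomal protein messengers, also rose, and Mknk1 and Mknk2, the kinases of eIF4E, fell, with log2 fold changes of 0.27, -0.28 and -0.35. Counting Pdcd4, 36.4% of the 11 passed, against 27.6% of all genes. Larp1 was lost without any 1 library (adjusted p 0.0567 to 0.105), Mknk1 with activated replicate 2, non-activated replicate 1 or non-activated replicate 3 removed (0.0573 to 0.0909), and Mknk2 without any 1 other than activated replicate 3 (0.0534 to 0.114). Their ranges over all alternatives by edgeR, limma and DESeq2 were 0.0138 to 0.159 for Larp1, 0.0129 to 0.155 for Mknk1 and 0.00714 to 0.189 for Mknk2. The count of 2 that fell was 0 with any of the last 3 libraries named for Mknk1 removed.

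Of the 6 genes for eIF2 alpha kinases and their opposing phosphatase subunits, Eif2ak2 and Ppp1r15b rose and Eif2ak3 fell. Eif2ak2 encodes PKR, the kinase activated by double-stranded RNA and known as interferon-induced. It was at 40.1, 41.1 and 64.8 CPM in activated libraries, against 24.4, 24.4 and 31.0 CPM in non-activated ones. Activated replicate 3 stood above the rest, and the groups did not overlap (log2 fold change 0.87 ± 0.19 SE, adjusted p 0.0115 by edgeR's quasi-likelihood test). The Eif2ak2 call was lost without both replicate 2 libraries (0.0503) and in the limma test of unfiltered TPM (0.0833), in a range of 0.000136 to 0.0833. Eif2ak3 was lost without any 1 non-activated library and without activated replicate 2 (0.0558 to 0.0979, range over all alternatives 0.00874 to 0.177) and Ppp1r15b without any 1 library other than activated replicate 2 (0.0684 to 0.124, range 0.0245 to 0.246). Of 8 genes for termination, recycling and reinitiation, Gspt1 and Denr rose and none fell. The share that passed was 25.0%, near the 27.6% of all genes. Gspt1, which encodes release factor eRF3, rose to 153, 139 and 126 CPM in activated libraries, against 89.3, 95.3 and 90.3 CPM in non-activated ones. These did not overlap (log2 fold change 0.61 ± 0.09 SE, adjusted p 0.00159 by edgeR's quasi-likelihood test). Denr was lost when either non-activated replicate 1 or 3 or activated replicate 2 was left out (0.0642 to 0.0815, range over all alternatives 0.00233 to 0.21). With the replicate block, 4 of the 8 rose: Etf1, release factor eRF1, and Abce1, the ribosome recycling factor, passed there by edgeR's quasi-likelihood test (adjusted p 0.0243 and 0.0255, ranges over all alternatives 0.0243 to 0.209 and 0.0197 to 0.313). Without the block, Etf1 had a log2 fold change of 0.25 ± 0.09 SE and Abce1 one of 0.30 ± 0.11 SE. Of 5 genes for poly(A)-binding proteins and their partners 0 passed by edgeR's quasi-likelihood test, by DESeq2 or by limma on TPM, and 3 had an unadjusted p under 0.05. With the replicate block, 1 passed as higher and 1 as lower. Paip1, a partner of poly(A)-binding protein known to favour translation, averaged 62.5 ± 8.22 CPM in activated libraries and 50.9 ± 1.81 CPM in non-activated ones. Its adjusted p by edgeR's quasi-likelihood test was 0.0613 without the block and 0.0254 with it, in a range of 0.0254 to 0.246. Paip2, a partner known to oppose it, averaged 85.8 ± 8.31 CPM in activated libraries and 100.7 ± 0.78 CPM in non-activated ones. Its adjusted p by edgeR's quasi-likelihood test was 0.0843 without the block, 0.0396 with it and 0.0455 with upper-quartile factors, in a range of 0.0201 to 0.328.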

How the data were processed

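Gene tables of 6 RNA-seq libraries were used. Library preparation, per the labels' protocols, used a NEBNext Ultra kit on 200 ng RNA, with single reads of 60 nt; strand is not stated, so reads of overlapping genes on opposite strands cannot be told apart. Per the file headers, the authors deposited RSEM-style expected counts, TPM and FPKM per gene; FPKM was not used. The submitters' processing notes name GRCm38, although the files carry a human build's name, and for the RNA aligner nothing is given in the sources used here.

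Symbols matched 41597 of 41813 gene IDs. Coordinates come from RefSeq GRCm38.p6 and were found for 81 of the 82 genes. Expected counts were rounded and tested in R 4.3.3 with edgeR 4.0.16 (filterByExpr by group, TMM, quasi-likelihood test, Benjamini-Hochberg over 13946 genes, threshold 0.05). The SE is the log2 fold change over the root of F. CPM are TMM-scaled, and levels between genes are compared on the deposited TPM. Alternatives, 17 in all, were DESeq2 1.42.0, other scalings, no filter, limma 3.58.1 on log2(TPM + 1) or log2(TPM + 0.1), a replicate block and left-out libraries. The fit was tested on simulated counts first.

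Spread between libraries (a common biological coefficient of variation of 16.9%) limited precision more than counting error did at these depths. Pearson correlations of log2 CPM were 0.976 to 0.986 for libraries of a group and 0.945 to 0.960 across groups; no pair agreed within sampling noise (chi-square per degree of freedom of at least 15.0). The same replicate numbers stand in the titles of both groups. Deviations from group means correlated at 0.398, 0.313 and 0.187 for equal numbers and at -0.315 to 0.040 for others. Deviations within a group cancel out, so positive values for equal numbers tend to make the others negative. Libraries of equal number thus shared some deviation, though no label says what a number marks. The test without the block was the main one because no label gives a pairing, and the block was kept as an alternative.

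Named genes were a list of 24 key factors and synthetases, up to 20 genes past the threshold per direction, up to 4 per pathway list by adjusted p, the 3 highest and 3 lowest levels, and genes below the filter. Genes named beyond that rule fill out a role group or a small count and were chosen after their values were seen. The genes, lists and motifs were chosen with earlier results of these data known. Some items are not reported here.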

Additional observations from a re-analysis of the deposited data

How the results depend on the processing

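Of the 816 log2 fold changes of named translation genes recomputed under the 17 alternatives, 681 kept their direction and side of the threshold, 112 lost the call, 11 gained one and 12 changed sign. The sign changes were in 6 genes, 0 of which had passed, and none of these 12 values passed either. The log2 fold change of Eif4a3 was 0.063, 0.064 and 0.063 with limma on log2(TPM + 1), log2(TPM + 0.1) and unfiltered TPM. Over the leave-outs of libraries it ran from -0.139 to 0.047 for Eif4a3, from -0.219 to 0.134 for Eif4ebp1, from -0.116 to 0.040 for Eif5, from -1.263 to 0.112 for Eef1a2, from -0.158 to 0.012 for Eif2s3x and from -0.191 to 0.006 for Eprs. The 15 genes that rose were 8 and the 12 that fell were 6 with limma on unfiltered TPM. Leaving out libraries gave 5 to 13 that rose and 5 to 13 that fell; with 1 library out, the number that rose was 9 without activated replicate 2, 8 without non-activated replicate 1 and 9 without non-activated replicate 3. Synthetases that rose (6) were 3, 3 and 2 with limma on log2(TPM + 1), log2(TPM + 0.1) and unfiltered TPM, and 2 to 5 with libraries left out. The synthetase that fell (1) was 0, 0 and 0 in those TPM tests and 0 to 1 with libraries left out. Initiation factors that rose (8) were 3 to 7, and those that fell (9) were 4 to 9, with libraries left out, and 5 fell with limma on unfiltered TPM. With the replicate block, 19 genes rose and 16 fell, 7 synthetases rose and 1 fell, and 11 initiation factors rose and 11 fell. The share of all genes called with the block was not counted. These counts therefore cannot be set against the 27.6% of all genes called without it. Leaving out libraries leaves fewer samples, and the cause of the differences on TPM was not tested. Scaling moved the median log2 fold change of all genes by less than 0.03. Of the 27 genes that passed, 8 passed under each of the 17 alternatives and 16 kept their call whichever single library was left out.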

Other observations

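The name rule leaves out the mitochondrial counterparts. Of 18 mitochondrial synthetase genes 3 fell (Ears2, Cars2 and Fars2), against 11.7% of all genes. Fars2 was lost without any 1 library other than activated replicate 1 (adjusted p 0.0542 to 0.13 by edgeR's quasi-likelihood test, range over all alternatives 0.0214 to 0.734). Ears2, for glutamate, fell to 13.0, 7.11 and 8.66 CPM in activated libraries, against 26.95, 22.6 and 25.1 CPM in non-activated ones. The groups did not overlap, and activated replicate 1 was the highest of its group (log2 fold change -1.37 ± 0.20 SE, adjusted p 0.00179 by edgeR's quasi-likelihood test). Cars2, for cysteine, averaged 23.8 ± 0.64 CPM in activated libraries and 36.0 ± 2.07 CPM in non-activated ones (SD, n = 3 each; adjusted p 0.00129 by edgeR's quasi-likelihood test).

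Of 8 mitochondrial translation factor genes 2 rose and 1 fell, against 15.9% of all genes higher and 11.7% lower. Tufm, the mitochondrial counterpart of Eef1a1, averaged 74.8 ± 4.03 CPM in activated libraries and 53.4 ± 4.68 CPM in non-activated ones (SD, n = 3 each; log2 fold change 0.48 ± 0.09 SE, adjusted p 0.00463 by edgeR's quasi-likelihood test), the opposite sign to Eef1a1; the difference between them was not tested. Gfm2, a ribosome recycling factor, rose by a log2 fold change of 0.43 ± 0.09 SE (adjusted p 0.011 by edgeR's quasi-likelihood test). The Gfm2 call was lost in each limma test on TPM (0.135 to 0.198). It was also lost without both replicate 2 (0.104) or both replicate 3 libraries (0.0717), in a range of 0.00274 to 0.198. Mtif3, an initiation factor, fell by 0.45 on the log2 scale, and its call was lost without any 1 library other than activated replicate 1 (adjusted p 0.0531 to 0.151, range over all alternatives 0.0204 to 0.306).

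Of 4 genes for the phenylalanine enzyme and the scaffold of the multi-synthetase complex, Farsa rose and Aimp1 fell, with log2 fold changes of 0.26 ± 0.08 SE and -0.40 ± 0.11 SE. Farsa was lost without any 1 library (adjusted p 0.0609 to 0.118 by edgeR's quasi-likelihood test, range over all alternatives 0.0243 to 0.205). Aimp1 was lost without any 1 non-activated library and without activated replicate 3 (0.0522 to 0.0968, range 0.00695 to 0.143).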
